A study of Mus musculus with 9 samples.

Results

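The genes described here are 10 regulators of the primitive streak and the mesoderm: T, Eomes, Tbx2, Tbx6, Mixl1, Mesp1, Hand1, Evx1, Lhx1 and Fgf8. They were chosen by name, for their known roles and with earlier results of these data known, out of 56691 genes in the deposited tables. Of the 10, 8 had enough counts to be tested, and Mixl1 and Mesp1 did not.

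The primitive streak is the furrow of the gastrulating mouse embryo through which epiblast cells leave to form mesoderm and endoderm. WNT, NODAL and BMP signals switch on the T-box factors T (Brachyury) and Eomes there, and later regulators divide the new mesoderm into paraxial, lateral plate, cardiac and extraembryonic parts. Mouse primordial germ cells arise from epiblast cells next to the streak at the same time, and T is among the factors tied to their specification.

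The study measured poly(A) RNA in embryoid bodies (EBs) made from BVSC mouse pluripotent stem cells (PSCs), which carry a Blimp1-mVenus (BV) and a Stella-eCFP reporter. Cells were sorted by mVenus into BV+ cells, which the study calls PGC-like cells (PGCLCs), and BV- cells, which it calls somatic. The 4 groups were BV+ NRF1 OE (n = 2), BV- NRF1 OE (n = 3), BV+ Ctrl (n = 2) and BV- Ctrl (n = 2). NRF1 OE cells carried a mouse Nrf1 cDNA in the doxycycline (DOX)-inducible p20 lentiviral vector, and Ctrl cells an empty vector. One protocol is given for every library, with 1.5 μg/ml DOX from day 2 to day 5 of differentiation in medium with serum. The infected cells were selected with a drug, no clone is named, and all groups share the BVSC line. The study's methods call its RNA-seq duplicates or replicates biological, without saying whether they came from separate cultures. The labels do not say so either, so p-values measure the spread between these libraries, which may in part be technical.

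Total counts ranged from 13702162 to 19625460 per library. Nrf1 itself was at 95.6 and 99.3 CPM (counts scaled to a common library size, as counts per 1000000) in BV+ NRF1 OE against 91.0 and 90.3 in BV+ Ctrl, a log2 fold change of 0.10 (SE 0.10; edgeR adjusted p = 0.489). In BV- cells Nrf1 was at 119, 122 and 126 CPM with NRF1 OE against 99.0 and 105 in Ctrl (log2 fold change 0.26, SE 0.10; edgeR adjusted p = 0.0718). Every NRF1 OE library was thus above the Ctrl libraries of its population, by an amount that did not pass the test, so the labelled overexpression was not clear from Nrf1 counts. Between the fractions with NRF1 OE, Nrf1 was lower in BV+ than in BV- cells (log2 fold change -0.33, SE 0.10; edgeR adjusted p = 0.0431). The markers did not set BV+ cells apart as germ cells. Prdm1 (Blimp1), the gene that the mVenus reporter follows and named here for that reason, was at 53.2 to 62.7 CPM in the 4 BV+ libraries and 42.4 to 61.9 CPM in the 5 BV- libraries. Its log2 fold change between BV+ and BV- cells was 0.05 in Ctrl (95% interval -0.31 to 0.42) and 0.00 with NRF1 OE (95% interval -0.33 to 0.33). Of 13 germ cell markers, 0 were higher and 0 lower in BV+ Ctrl than in BV- Ctrl cells after adjustment in edgeR beside 1.12% of all genes called, and 4 had an unadjusted p under 0.05, beside 1314 of all 16903 genes. With NRF1 OE 1 was higher (Itgb3, log2 fold change 1.24) and 5 were lower (among them Nanos3, -1.04), beside 9.9% and 3.85% of all genes tested. The names BV+ and BV- are therefore used below for the sorted fractions only.

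Promoters were shown for 3 of the T-box members, 1 that was higher in every BV+ library (T) and 2 that were not (Eomes and Tbx6), to let their sequences be read beside the levels. RefSeq's promoter table (GRCm38.p6) had entries for 6 of the 10 genes (T, Eomes, Mesp1, Tbx6, Evx1 and Lhx1). The 250 bases before the start of transcription are given 5′ to 3′ on the gene's strand, from chr17:8434173-8434422 (T), chr9:118477939-118478188 (Eomes) and chr7:126781233-126781482 (Tbx6), all on the + strand. Capitals mark matches, on either strand, to any of 4 motifs: the NRF1 element (by its palindromic core with a free middle base), the T-box half-site AGGTGTNA, the TCF/LEF core CTTTGA and TATAA.
T: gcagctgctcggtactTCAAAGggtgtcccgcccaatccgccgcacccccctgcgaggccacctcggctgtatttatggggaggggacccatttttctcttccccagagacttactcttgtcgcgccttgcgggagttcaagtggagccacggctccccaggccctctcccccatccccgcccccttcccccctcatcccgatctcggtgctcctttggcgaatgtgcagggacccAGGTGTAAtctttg
Eomes: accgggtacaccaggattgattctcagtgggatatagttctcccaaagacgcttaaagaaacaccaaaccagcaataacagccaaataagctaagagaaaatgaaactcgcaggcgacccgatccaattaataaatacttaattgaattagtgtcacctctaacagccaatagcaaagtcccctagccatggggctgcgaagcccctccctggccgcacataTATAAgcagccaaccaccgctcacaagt
Tbx6: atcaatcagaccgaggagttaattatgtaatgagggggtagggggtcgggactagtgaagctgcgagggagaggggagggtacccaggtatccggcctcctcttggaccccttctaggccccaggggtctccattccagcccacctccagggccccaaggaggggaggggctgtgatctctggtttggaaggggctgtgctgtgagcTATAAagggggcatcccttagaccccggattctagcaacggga
The T window held a reverse-strand match to the TCF/LEF core (TCAAAG) from base -234 to -229 and a T-box half-site from base -14 to -7. Eomes and Tbx6 each held TATAA, from base -28 to -24 and from base -43 to -39. Among 32851 promoters of this length, 13.8% held the TCF/LEF core, 2.68% the T-box half-site, 22.8% TATAA and 3.74% the NRF1 element. None of the 6 members' windows held the NRF1 element, which says only that these letters are not in these windows. A match is a description of the sequence, not a bound site.

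Per unit length, the regulators were low genes. On the deposited FPKM scale, which divides by gene length and so allows genes to be compared, Eomes was the only one of the 10 above 1 FPKM in every library (1.19 to 1.81). Fgf8 reached the highest level, 5.83 and 8.57 FPKM in BV+ NRF1 OE, and was at 0.75 to 3.14 FPKM in the BV- libraries. Tbx2 lay between 0.04 and 2.49 FPKM and Hand1 between 0.06 and 2.07 FPKM. The other 6 stayed below 1 FPKM in every library: T (0 to 0.35), Tbx6 (0.15 to 0.54), Evx1 (0.09 to 0.41), Lhx1 (0.07 to 0.26), Mixl1 (0.07 to 0.19) and Mesp1 (0 to 0.09). Most of these ranges overlapped, although every Tbx6 library was above every Mesp1 library.

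**Figure D1:**
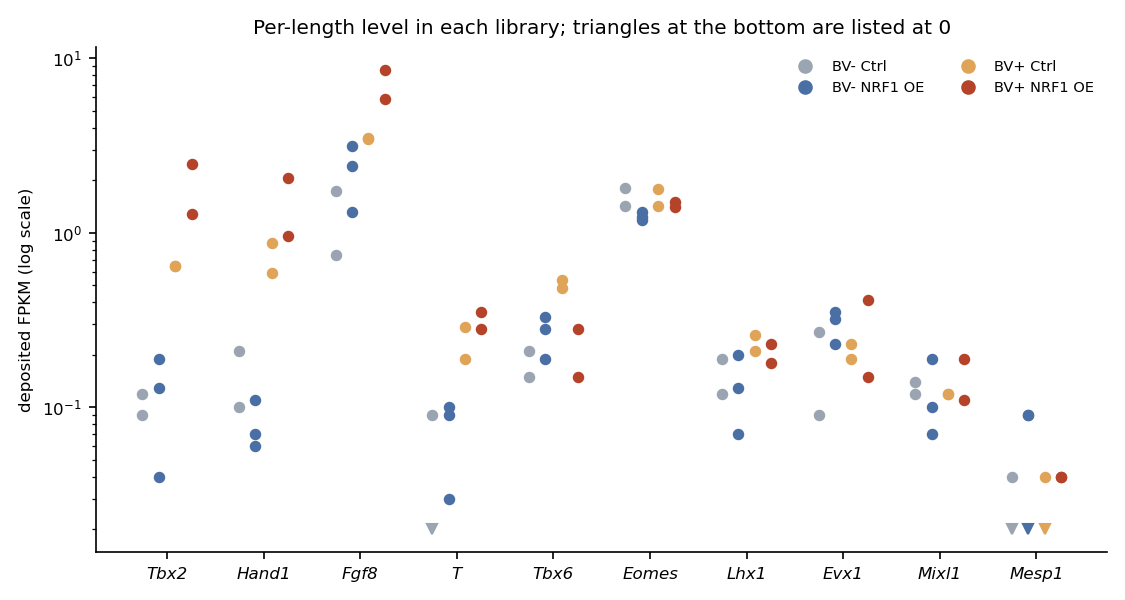
Deposited FPKM of the 10 regulators (log axis), 1 point per library, coloured by group. Eomes lay between 1.19 and 1.81 FPKM in every library, whereas Fgf8, Tbx2 and Hand1 had their highest values in BV+ NRF1 OE.

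The first comparison asked how BV+ cells differed from BV- cells. Tbx2, Hand1, Fgf8 and T were higher in each of the 4 BV+ libraries than in any of the 5 BV- libraries, which held for 7.66% of all genes tested. Tbx2, Hand1 and T passed the filter on low counts only through their BV+ libraries. Being tested at all thus required them to be higher there, so their separation is a description and not independent support. With NRF1 OE, Tbx2, Hand1 and Fgf8 also passed edgeR's adjusted test, and in Ctrl Tbx2 did, while DESeq2 also called Fgf8 there. Eomes, Lhx1 and Evx1 did not pass it in either state.

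Tbx2, a T-box repressor of limb, heart and lung mesoderm, had the smallest adjusted p of the 8 in this comparison. Its raw counts were 177 and 85 in BV+ NRF1 OE, 35 and 44 in BV+ Ctrl, 8, 2 and 12 in BV- NRF1 OE, and 5 and 8 in BV- Ctrl. As CPM these were 9.11 and 4.62, 2.29 and 2.30, 0.481, 0.147 and 0.710, and 0.315 and 0.427, in the same order. The lowest BV+ library was thus well above the highest BV- library. Tbx2 was higher in BV+ cells by a log2 fold change of 3.87 with NRF1 OE (SE 0.42; edgeR adjusted p = 0.000112) and of 2.59 in Ctrl (SE 0.55; edgeR adjusted p = 0.0490). The call in Ctrl was at the threshold and was lost when any 1 of the 4 Ctrl libraries was left out (log2 fold change 2.39 to 2.81; adjusted p 0.252 to 0.503) and without BV- NRF1 OE replicate 1 (2.59; adjusted p = 0.0865).

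Hand1, a bHLH factor of extraembryonic and lateral plate mesoderm and of the trophoblast, was at 4.17 and 1.90 CPM in BV+ NRF1 OE and 1.70 and 1.15 CPM in BV+ Ctrl. In BV- cells Hand1 was at 0.120, 0.147 and 0.237 CPM with NRF1 OE and 0.189 and 0.427 CPM in Ctrl, from 2 to 8 raw counts. The BV+ and BV- ranges did not overlap. Hand1 was higher in BV+ cells by a log2 fold change of 4.11 with NRF1 OE (SE 0.52; edgeR adjusted p = 0.000323). In Ctrl the log2 fold change was 2.14 (SE 0.58; edgeR adjusted p = 0.148), which passed without BV- NRF1 OE replicate 2 (2.16; adjusted p = 0.0412) and not otherwise when 1 library was left out.

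Fgf8, the secreted FGF that cells need in order to leave the streak, was at 11.7 and 7.83 CPM in BV+ NRF1 OE and 4.52 and 4.61 CPM in BV+ Ctrl. In BV- cells Fgf8 was at 1.80, 4.27 and 3.37 CPM with NRF1 OE and 1.01 and 2.35 CPM in Ctrl. The ranges came close, since the highest BV- library (4.27 CPM) was just under the lowest BV+ library (4.52 CPM). With NRF1 OE, Fgf8 was higher in BV+ cells by a log2 fold change of 1.65 (SE 0.34; edgeR adjusted p = 0.00769). That call was lost without BV+ NRF1 OE replicate 1 (log2 fold change 1.33; adjusted p = 0.109). In Ctrl the log2 fold change was 1.41 (SE 0.42; edgeR adjusted p = 0.220), at 0.94 without BV- Ctrl replicate 1, 2.15 without BV- Ctrl replicate 2 and called without BV- NRF1 OE replicate 2 (1.44; adjusted p = 0.0227).

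T, the founding T-box factor and a standard marker of the streak and nascent mesoderm, had few reads. Its raw counts were 16 and 12 in BV+ NRF1 OE, 10 and 8 in BV+ Ctrl, 1, 3 and 4 in BV- NRF1 OE, and 0 and 4 in BV- Ctrl. The count of 0 allows up to 0.189 CPM in that library, covering counting error only. All BV+ libraries (0.419 to 0.823 CPM) were above all BV- libraries (0 to 0.237 CPM). The log2 fold change was 2.07 with NRF1 OE (SE 0.68; edgeR adjusted p = 0.0659) and 2.14 in Ctrl (SE 0.86; edgeR adjusted p = 0.527), so neither passed in edgeR. The value in Ctrl rested on single libraries, at 1.26 without BV- Ctrl replicate 1, and without BV- Ctrl replicate 2 only the count of 0 was left in that group, against which no fold is given. With NRF1 OE, T passed without a filter (adjusted p = 0.0272), with GC and length offsets (0.0289) and without BV- Ctrl replicate 1 or 2 (0.0452 and 0.0459), and adjusted p ranged up to 0.252 over the other alternatives, without BV+ NRF1 OE replicate 1.

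Counted over the 8 tested regulators, 3 were higher in BV+ than in BV- cells with NRF1 OE and 1 in Ctrl after adjustment, beside 9.9% and 1.1% of all genes tested that were higher (13.8% and 1.12% called in either direction). With 1 library left out, the 2325 genes called with NRF1 OE became 796 (without BV+ NRF1 OE replicate 1) to 3165 (without BV- NRF1 OE replicate 1), and the 190 called in Ctrl became 20 (without BV- Ctrl replicate 1) to 484 (without BV- NRF1 OE replicate 2). At the study's threshold (unadjusted p under 0.05 and absolute log2 fold change above 0.58), the counts were 4 with NRF1 OE (T, Tbx2, Hand1 and Fgf8) and 5 in Ctrl (the same genes and Tbx6), beside 14.7% and 5.74% of all genes. None of the 8 was lower in BV+ cells by either rule, which for Tbx2, Hand1 and T the filter on low counts made hardly possible. In bulk RNA, fewer cells of a type and less RNA per cell cannot be told apart.

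**Figure D2:**
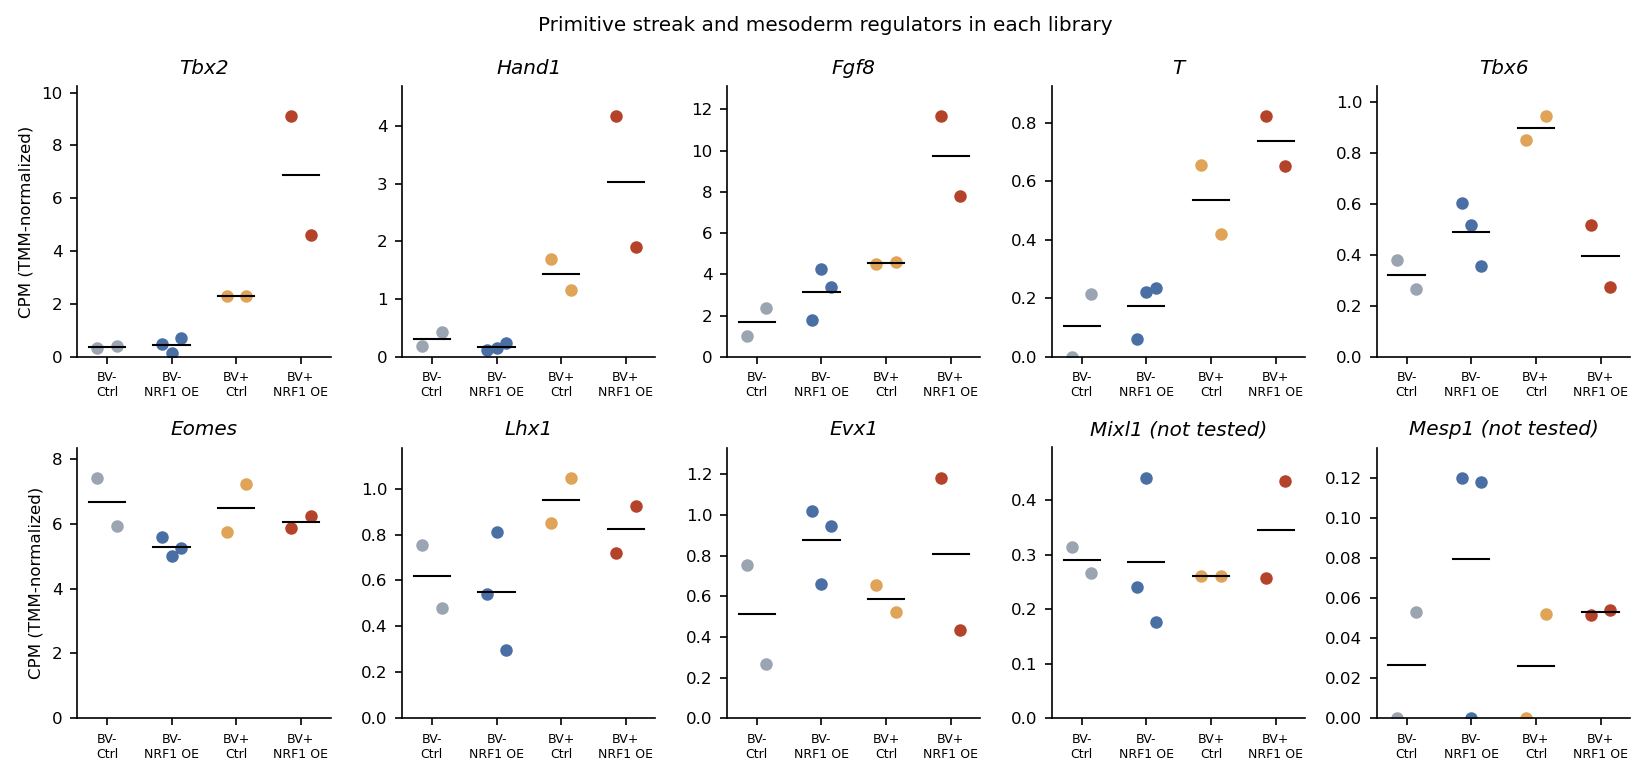
TMM-normalized CPM of each regulator by group, 1 point per library, with the group mean as a bar. Tbx2, Hand1, Fgf8 and T had every BV+ library above every BV- library, and Eomes lay between 5.00 and 7.43 CPM in all 9 libraries.

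Eomes, the T-box factor of the anterior streak, definitive endoderm and trophoblast, showed the most even levels. It was at 5.87 and 6.25 CPM in BV+ NRF1 OE, 5.76 and 7.23 in BV+ Ctrl, 5.59, 5.00 and 5.26 in BV- NRF1 OE, and 7.43 and 5.92 in BV- Ctrl. In Ctrl the BV+ and BV- ranges overlapped, and with NRF1 OE both BV+ libraries were above the 3 BV- libraries by a small margin. The log2 fold change between BV+ and BV- cells was -0.03 in Ctrl (95% interval -0.47 to 0.41) and 0.19 with NRF1 OE (95% interval -0.21 to 0.60). The reads of Eomes and of Gm33460, which overlaps it on the opposite strand, cannot be told apart where counting ignored strand, and the strand setting is not stated.

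Lhx1, a LIM homeobox factor of the anterior streak, axial midline and intermediate mesoderm, was at 0.720 to 1.05 CPM in the BV+ libraries and 0.296 to 0.809 CPM in the BV- libraries. Evx1, a homeobox factor of the posterior streak, was at 0.435 to 1.18 CPM in BV+ and 0.267 to 1.02 CPM in BV- libraries. The ranges of both genes overlapped. With NRF1 OE the log2 fold change of Lhx1 was 0.61 (95% interval -0.40 to 1.61) and that of Evx1 was -0.12 (95% interval -1.22 to 0.98). These intervals leave room for changes of more than 1 on the log2 scale. With 1 library left out, Lhx1 ran from 0.31 to 1.00. Evx1 was at -1.01 without BV+ NRF1 OE replicate 1 and at 0.46 without replicate 2, so its sign rested on single libraries. Evx1 is overlapped on the opposite strand by Evx1os, with the same limit on strand as for Eomes.

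Mixl1, the homeobox factor of the streak that guides mesendoderm, had 3 to 8 raw counts in every library. Mesp1, the bHLH factor of the earliest cardiac mesoderm, had 0 to 2. These 2 genes did not pass the filter on low counts. Differences between groups were thus not tested for them with that filter. At this depth, 3 counts correspond to 0.154 to 0.221 CPM.

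The second comparison asked how NRF1 OE changed the same genes within each sorted fraction. In BV+ cells Tbx2 rose and no other regulator passed edgeR's adjusted test, while DESeq2 also called Fgf8. In BV- cells none passed. For 3 regulators (Tbx2, Hand1 and Fgf8) both BV+ NRF1 OE libraries were above both BV+ Ctrl libraries, as they were for 38.1% of all genes tested.

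Tbx2 rose from 2.29 and 2.30 CPM in BV+ Ctrl to 9.11 and 4.62 CPM in BV+ NRF1 OE, a log2 fold change of 1.58 (SE 0.39; edgeR adjusted p = 0.0371). The 2 NRF1 OE libraries were far apart from each other. Without BV+ NRF1 OE replicate 1 the log2 fold change was 1.01 (adjusted p = 0.370), and without BV+ Ctrl replicate 1 or 2 it was 1.63 (adjusted p = 0.153 and 0.226). Fgf8 (log2 fold change 1.10, SE 0.36; edgeR adjusted p = 0.0777) and Hand1 (1.10, SE 0.43; edgeR adjusted p = 0.108) did not pass. For Hand1 the value was 0.43 (adjusted p = 0.674) without BV+ NRF1 OE replicate 1 and 1.61 (adjusted p = 0.0317) without replicate 2. For Fgf8 it was 0.78 (adjusted p = 0.465) without BV+ NRF1 OE replicate 1, and the call was gained without BV- NRF1 OE replicate 1 or 2 (adjusted p = 0.0445 and 0.0110). BV+ NRF1 OE replicate 1 held the highest value of Tbx2, Hand1, Fgf8 and T of all 9 libraries.

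Tbx6, the T-box factor that holds cells to the paraxial mesoderm fate, had the opposite sign. It was at 0.851 and 0.943 CPM in BV+ Ctrl, from 13 and 18 raw counts, and at 0.515 and 0.272 CPM in BV+ NRF1 OE, from 10 and 5. Both BV+ Ctrl libraries were above the other 7, which lay between 0.267 and 0.601 CPM. The log2 fold change with NRF1 OE in BV+ cells was -1.17 (SE 0.49; unadjusted p = 0.0336, edgeR adjusted p = 0.125), and that between BV+ and BV- Ctrl cells was 1.48 (SE 0.51; edgeR adjusted p = 0.362). Neither passed the adjusted test, and the first was -0.74 without BV+ NRF1 OE replicate 2.

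After adjustment, 1 of the 8 regulators was called for NRF1 OE in BV+ cells, beside 8.02% of all genes tested, and 0 in BV- cells, beside 17.2%. These shares rested on single libraries. The 1355 genes called in BV+ cells became 0 without BV+ NRF1 OE replicate 1 or either BV+ Ctrl library, 673 without BV- NRF1 OE replicate 3, 893 without either BV- Ctrl library, and 2373 to 4947 without BV+ NRF1 OE replicate 2 or BV- NRF1 OE replicate 1 or 2. The 2912 genes called in BV- cells became 0 or 1 without any 1 of the Ctrl libraries, 35 without BV- NRF1 OE replicate 3 and 5829 without BV- NRF1 OE replicate 1. In BV- cells 0 of the 8 had an unadjusted p under 0.05 in edgeR, beside 6606 of all 16903 genes, and DESeq2 called 0 after adjustment. At the study's threshold the counts were 4 in BV+ cells (Tbx2, Hand1 and Fgf8 higher, Tbx6 lower) and 0 in BV- cells, beside 17% and 16% of all genes. In BV- cells the log2 fold changes ran from -0.87 (Hand1, SE 0.76) to 0.86 (Fgf8, SE 0.41; edgeR adjusted p = 0.140). With 1 library left out, that of Hand1 lay between -1.30 and -0.16 and that of Fgf8 between 0.40 and 1.61.

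Whether NRF1 OE acted differently in the 2 fractions was tested directly. None of the 8 regulators passed the adjusted test of the difference in edgeR, beside 0% of all genes tested (932 genes had an unadjusted p under 0.05), and DESeq2 on all libraries called 0 of the 8 and 22 genes in all. Tbx6 (difference -1.78 on the log2 scale, SE 0.71; unadjusted p = 0.0292, edgeR adjusted p = 0.815) and Hand1 (1.97, SE 0.88; unadjusted p = 0.0454, edgeR adjusted p = 0.886) had an unadjusted p under 0.05. The difference for Tbx2 was 1.28 (95% interval -0.43 to 2.99). A rise of Tbx2 particular to BV+ cells was therefore not shown.

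**Figure D3:**
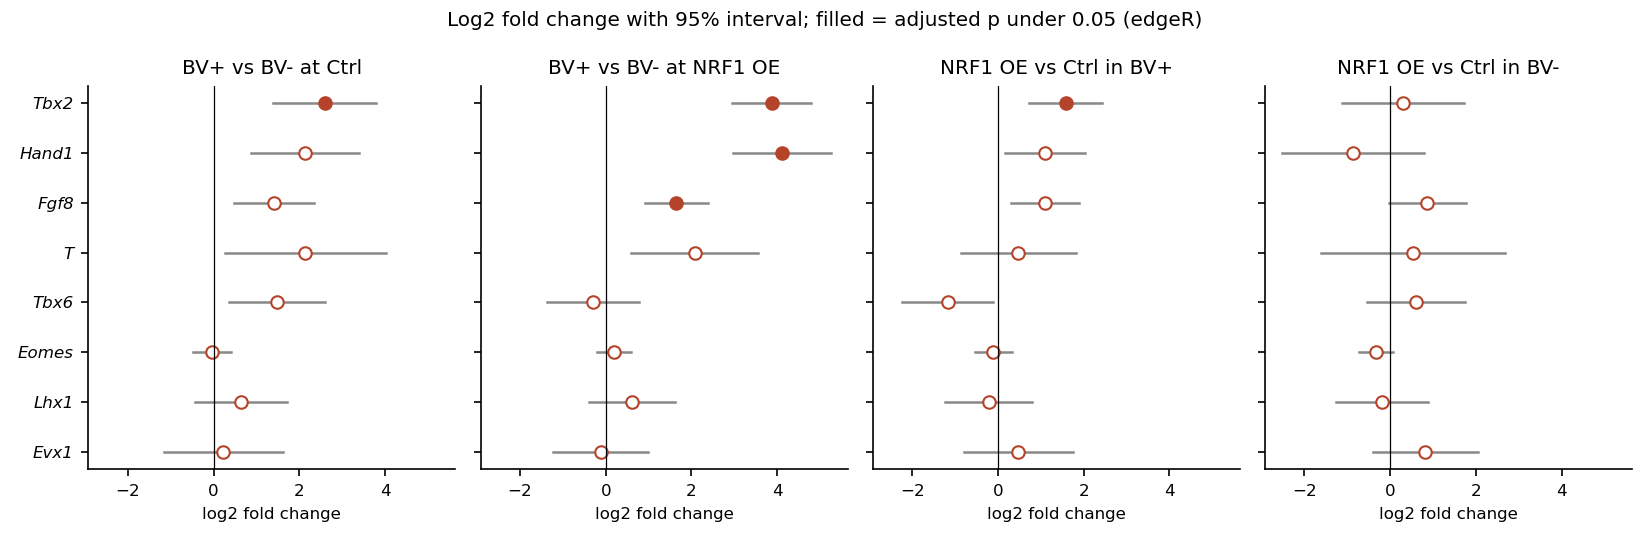
Log2 fold change (points) with 95% interval (lines) of the 8 tested regulators in the 4 comparisons, filled where the adjusted p was under 0.05. The BV+ against BV- differences of Tbx2, Hand1 and Fgf8 with NRF1 OE, at 3.87, 4.11 and 1.65, lay clear of 0, and the intervals of Eomes were the narrowest.

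The Ctrl and NRF1 OE libraries differed in how levels followed the GC content of genes. The rank correlation across genes between a library's deviation from the mean and GC content was -0.505 to -0.398 in the 4 Ctrl libraries and 0.0237 to 0.621 in the 5 NRF1 OE libraries. The spread was wide within BV- NRF1 OE too (0.0294 to 0.621). A technical difference between the vector groups and NRF1 OE itself cannot be told apart here. With offsets for GC content and length, the log2 fold change of Tbx2 with NRF1 OE in BV+ cells was 1.11 (edgeR adjusted p = 0.0478), that of Fgf8 was 0.60 (adjusted p = 0.154) and that of Hand1 was 0.74 (adjusted p = 0.209). Between BV+ and BV- cells with NRF1 OE, the same offsets gave 3.66 for Tbx2, 4.07 for Hand1 and 1.64 for Fgf8.

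Other genes of the streak and mesoderm were read from lists, whose counts are to be set beside the shares of all genes tested. Between BV+ and BV- cells these were 9.9% higher and 3.85% lower with NRF1 OE, and 1.1% higher and 0.0237% lower in Ctrl. With NRF1 OE against Ctrl they were 6.24% higher and 1.78% lower in BV+ cells, and 10.3% higher and 6.98% lower in BV- cells. Of 13 tested streak signals, the ligands and their modifiers, 1 was higher and 1 lower in BV+ than in BV- cells with NRF1 OE (Bmp4, log2 fold change 0.86, and Gdf3, -0.55). The list's median was -0.04, beside -0.00491 for all genes tested, and 2 of 13 called was near the 13.8% of all genes. With NRF1 OE in BV+ cells only Furin, a protease that activates NODAL and BMP precursors, was called among them (0.84). Furin was called with NRF1 OE in BV- cells too (0.64), and the difference between the fractions was 0.20 (SE 0.22). Of the 13, 6 had an unadjusted p under 0.05 between BV+ and BV- cells with NRF1 OE, beside 4766 of all 16903 genes tested.

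The lateral plate, cardiac and extraembryonic mesoderm list held more calls. Of its 17 tested genes, 12 were higher and 0 lower in BV+ than in BV- cells with NRF1 OE, with a median log2 fold change of 2.54, beside 9.9% and 3.85% of all genes. Some genes of this list and of the lists below were low in every BV- library and passed the filter only through BV+ libraries. Such genes could hardly be called lower, so the split and the median are in part set by the filter. In Ctrl 3 were higher and 0 lower, beside 1.1% and 0.0237% (median 1.31, beside -0.01 for all genes). Kdr, the VEGF receptor of early vascular mesoderm, was at 25.4 and 17.1 CPM in BV+ NRF1 OE, 6.55 and 8.54 in BV+ Ctrl and 1.42 to 2.56 in the BV- libraries. Mef2c, a cardiac and muscle transcription factor, was higher in BV+ cells by 3.61 with NRF1 OE and 3.03 in Ctrl. With NRF1 OE in BV+ cells 5 of the 17 rose and 1 fell (Kdr 1.49 and Pdgfra -1.17), and in BV- cells 0 rose and 2 fell (Pdgfra -1.29 and Gata6 -1.08), the latter 2 of 17 beside 17.2% of all genes called.

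The paraxial and tail bud list had 4 higher and 0 lower of 12 tested in BV+ than in BV- cells with NRF1 OE, beside 9.9% and 3.85% (median 0.44), with the smallest p-values for Foxc1, a forkhead factor of paraxial mesoderm and vessels (5.26), and Pax3 (2.54). In Ctrl Foxc1 alone was called (3.78). Of 11 tested axial and organizer genes, 4 were higher and 1 lower with NRF1 OE (median 0.06), with the smallest p-values for the BMP antagonist Nog (3.53) and the WNT antagonist Frzb (3.92). Of 6 tested intermediate mesoderm genes, 2 were higher (Bmp7 1.12 and Pax2 1.81) and 0 lower. Among 5 tested T-box genes outside the 10, Tbx20, a cardiac factor (4.63), and Tbx3, which is also expressed in naive pluripotent cells (1.15), were higher in BV+ cells with NRF1 OE and 0 were lower. Tbx20 is in the lateral plate list too. In the BV- libraries Foxc1 was at 0.252 to 0.473 CPM, Pax3 at 0.0736 to 0.651, Nog at 0.237 to 0.533 and Tbx20 at 0 to 0.267. The sizes of their folds thus rest on few BV- reads.

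Markers of some other cell types were also higher in BV+ than in BV- cells, and those of others were lower. In BV+ against BV- cells with NRF1 OE, 7 of 9 tested fibroblast and mesenchyme markers were higher and 0 lower, beside 9.9% and 3.85% of all genes (median 2.76), with the smallest p-values for the collagen genes Col1a1 (4.57) and Col1a2 (5.08). The summed level of the 10 listed was 899 to 1453 CPM in BV+ NRF1 OE, 285 to 292 in BV+ Ctrl, 130 to 177 in BV- NRF1 OE and 95.2 to 116 in BV- Ctrl, and none was at 0 in any group. Col1a1 was at 80.1 and 65.9 CPM in BV+ NRF1 OE, 17.7 and 19.9 in BV+ Ctrl and 1.95 to 3.38 in the BV- libraries, so that, as for Tbx2, both BV+ NRF1 OE libraries were above BV+ Ctrl and all 4 above the BV- libraries. Their part in the differences of Tbx2, Hand1, Fgf8 and T was not tested.

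Of 7 tested endothelium and blood markers, 4 were higher and 0 lower in BV+ cells with NRF1 OE, beside the same shares of all genes (Kdr 3.73 and Cdh5 4.12). Of these 4, Kdr and Tal1 are in the lateral plate list too. The summed level of the 10 listed was 159 to 196 CPM in BV+ NRF1 OE and 174 to 191 in BV- NRF1 OE. Most of it was Pecam1, at 100 and 144 CPM in BV+ NRF1 OE and 155 to 171 in BV- NRF1 OE. Of 7 tested neuroectoderm markers, 4 were higher and 0 lower (the smallest p-value was that of Nes, 2.96), with sums of 192 to 238 against 103 to 138 CPM. Of 5 tested trophoblast markers, a tissue in which Hand1 and Eomes also act, 2 were higher and 0 lower (Gata2 2.16 and Krt7 1.37). Elf5 was at 0 in 3 of the 4 groups and Prl3d1 and Tpbpa were at 0 in all 4. Of 12 endoderm markers 0 were higher and 4 lower (Cubn -1.62 and Apoa1 -2.70). Of 10 naive pluripotency markers 1 was higher (Tbx3, counted among the T-box genes too) and 3 lower. The naive pluripotency sums were 2016 to 2248 CPM in BV+ NRF1 OE, 2352 to 2466 in BV+ Ctrl, 2679 to 2831 in BV- NRF1 OE and 2561 to 2662 in BV- Ctrl. The part of these cell types in the regulators' levels was not tested.

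**Figure D4:**
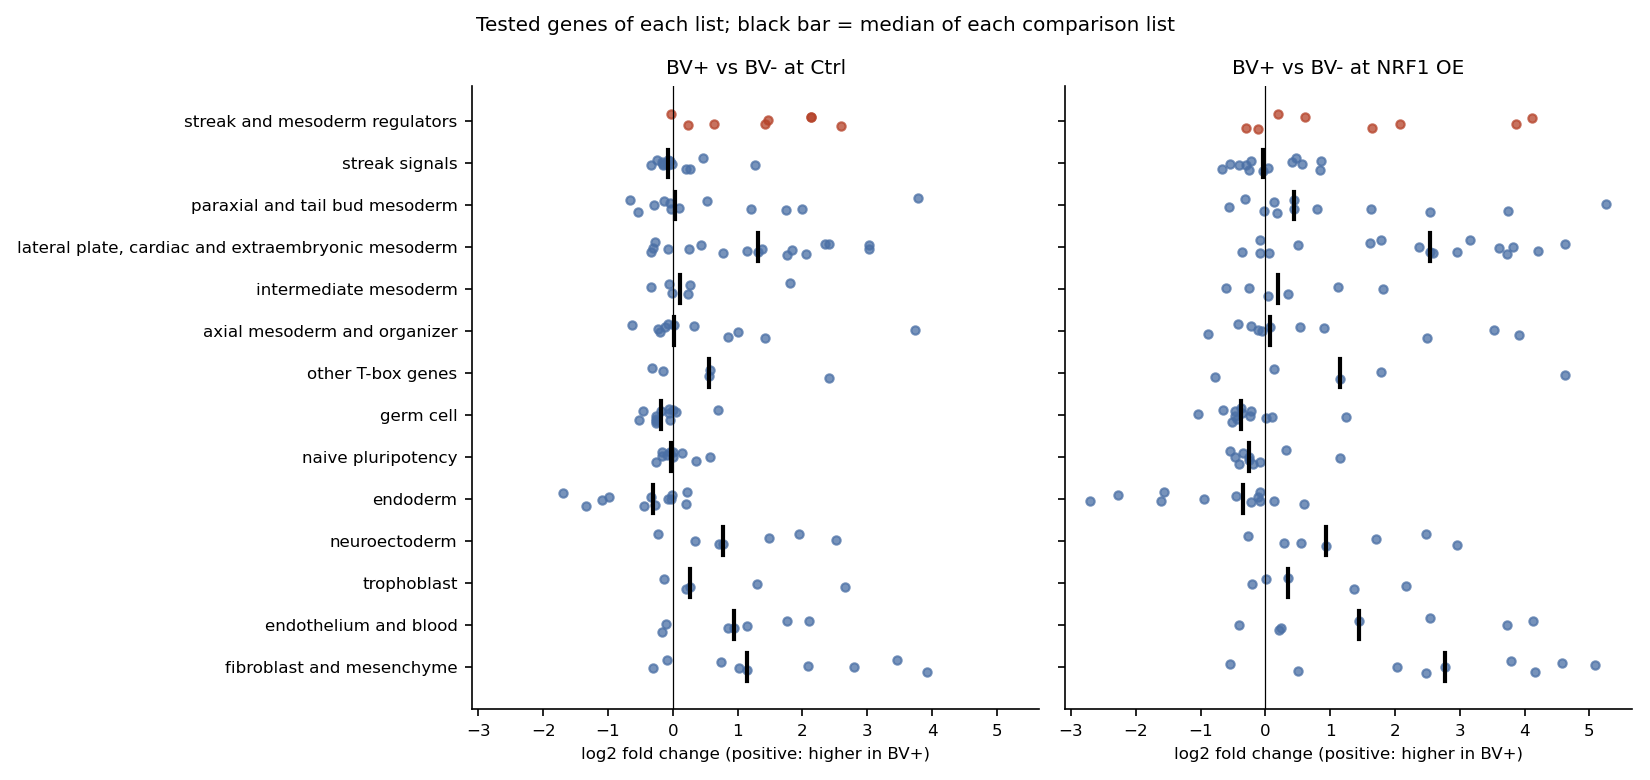
Log2 fold change between BV+ and BV- cells in Ctrl (left) and with NRF1 OE (right), 1 point per tested gene, for the streak and mesoderm regulators (red) and each comparison list (blue, black bar at its median). The lateral plate, cardiac and extraembryonic list (median 2.54) and the fibroblast and mesenchyme list (2.76) lay furthest to the BV+ side with NRF1 OE.

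Genes with the pattern most like 3 regulators were found by the Pearson correlation of log2 CPM over the 9 libraries, among 14370 genes of at least 1 CPM on average. The libraries share their sort and vector groups, so high values are common and carry no p. For Tbx2 these were Igf1r (r = 0.993), Bach2 (0.990) and S1pr1 (0.987). For Fgf8 they were Meis3 (0.995), Pkdcc (0.988) and Sox1 (0.988), and for Eomes they were Adnp (0.980), Rimklb (0.968) and Rel (0.958). S1pr1 was at 7.51 and 3.80 CPM in BV+ NRF1 OE and 0.147 to 0.533 CPM in the BV- libraries, and Adnp, like Eomes, had its highest level in BV- Ctrl replicate 1 (9.19 CPM).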

How the data were processed

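RNA-seq was measured in 9 libraries of sorted EB cells. The authors aligned trimmed reads on GRCm39 (HISAT2 2.0.1) and assigned them to genes (HTSeq 0.6.1), per the submitters' processing notes and the study's methods, and deposited a raw count per gene, not normalized. FPKM values, deposited beside the counts, were used only to compare levels between genes. Strand use in counting is not given in the sources used here.

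The test was edgeR's quasi-likelihood F test (version 4.0.16, R 4.3.3), in 1 fit of the 9 libraries and 4 groups with TMM factors (0.969 to 1.025). The filterByExpr filter left 16903 genes, over which p-values were adjusted by Benjamini-Hochberg (threshold 0.05). A gene low elsewhere can pass that filter through 1 high group. Tests were two-sided, the common biological coefficient of variation was 0.129, and CPM used whole-library sizes multiplied by the TMM factors. Depth of 13702162 to 19625460 counts puts 3 counts at 0.154 to 0.221 CPM. GC content, length and overlapping genes came from a GRCm38 annotation, matched by identifier for 16662 genes (98.6%), and promoters from RefSeq. DESeq2 1.42.0, other filters and scalings, GC and length offsets, a replicate block and leaving out each library were tried as alternatives.

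The regulators and gene lists were chosen with earlier results of these data known. The genes named are the 10 regulators, Nrf1, at most the 2 genes of smallest p per list and comparison, and the 3 genes most correlated with each of the 3 regulators of highest mean CPM. Prdm1 was added as the reporter gene, Gm33460 and Evx1os as overlapping genes, and Elf5, Prl3d1 and Tpbpa as markers at 0. Tal1 was added as a gene shared between lists, and Pecam1 as the largest part of a summed level. Replicates of a group differed by more than counting noise (chi-square per degree of freedom 2.90 to 31.2), so none was merged.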

Additional observations from a re-analysis of the deposited data

How the results depend on the processing

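With NRF1 OE, the BV+ against BV- calls of Tbx2 and Hand1 held under every alternative run, and no called value changed sign in any. The count of 3 in that comparison became 4, with T, without a filter and with GC and length offsets, and was 2 to 4 with 1 library left out. Other counts of regulators called after adjustment depended on the setting. For NRF1 OE in BV+ cells the count of 1 became 2 with DESeq2 (in all libraries or in the 2 groups compared) and with edgeR on the 2 groups compared, 3 without a filter, and 0 to 2 when 1 library was left out. At the study's threshold the count of 4 became 2 with DESeq2 on all libraries and 2 to 4 with 1 library left out. In BV- cells the count of 0 became 1 without a filter, and 0 to 1 with 1 library left out. At the study's threshold it became 1 with DESeq2 on all libraries and without a filter, and 0 to 1 with 1 library left out. For BV+ against BV- Ctrl cells the count of 1 became 2 with DESeq2 (both fits) and with GC and length offsets, 3 without a filter and in the 2 groups compared, 0 with a filter of 10 counts on average, and 0 to 3 with 1 library left out. At the study's threshold the count of 5 became 3 with DESeq2 on the 2 groups compared and with the filter of 10 counts, which left 6 of the regulators to test and removed T and Tbx6, and 3 to 5 with 1 library left out. The cause of the other changes was not tested. Where leaving out a library left 1 in a group, that library was assumed to vary like the other groups.

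Same-numbered libraries deviated with correlations of -0.295 to 0.243. In groups of 2 libraries the deviations from the group mean mirror each other, so these values cannot tell whether same-numbered fractions came from the same EBs. The labels give only a number. With the number as a replicate block, the calls after adjustment were 0 for NRF1 OE in BV+ cells (0 with GC and length offsets too, and then 2 at the study's threshold) and 0 for BV+ against BV- Ctrl cells (1, Tbx2, with GC and length offsets too). With the numbers of the BV+ Ctrl libraries crossed, a pairing chosen after seeing the data, the count for BV+ against BV- Ctrl cells was 0 after adjustment and 5 at the study's threshold.

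Over all genes, the calls for NRF1 OE in BV+ cells numbered 1355, against 3 with the replicate block and 4380 in the fit of the 2 groups compared. In BV- cells they numbered 2912, against 0 with the block and 0 in that fit. T, Tbx6, Evx1, Lhx1, Mixl1 and Mesp1 had 23 or fewer counts in every library. Whether depth kept differences in these genes from being called was not tested.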
